A study of Homo sapiens with 2 samples.

Results

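The MAPK feedback and early response genes were compared between SW620 cells made to express CDR1AS and SW620 cells with control lentiviruses. The set held 52 genes on 58 probes, out of 18638 genes with a symbol on 24459 gene probes. Its members were the numbered DUSP phosphatase genes, the Sprouty and SPRED genes, the PEA3 transcription factor genes, the EGR genes, AP-1 subunit genes, further early response genes and the ERBB ligand genes, taken by symbol from the platform's annotation. SW620 is an established line from a colon carcinoma. CDR1AS is a circular RNA rich in binding sites for the microRNA miR-7. Total RNA of the CDR1AS cells was hybridised to 1 array and total RNA of the control cells to 1 array, both in the Cy5 channel, from cells in ordinary culture in DMEM with fetal bovine serum. Whether either line was a clone or a pool, and which vector carried CDR1AS, are details not given in the sources used here, and circular CDR1AS itself was not analysed here.

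Growth factor receptors signal through RAS, RAF and MEK to the kinase ERK, which enters the nucleus and switches on early response genes within minutes. Many of the genes switched on act back on the pathway: dual-specificity phosphatases remove phosphate from ERK, JNK or p38, and Sprouty and SPRED proteins dampen the steps between receptor and RAF. In carcinoma cells, transcripts such as DUSP6, ETV4, ETV5 and SPRY4 are commonly read as measures of the pathway's output.

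With 1 array in each group there was no replicate error and no test, so every value below sets 1 array against the other, and the number of arrays limits its precision. The background limit was the mean of 384 blank spots plus 2 SD, or 72.1 on the CDR1AS array and 69.1 on the control array. It was passed by 87.2% of gene probes on the CDR1AS array and by 84.4% on the control array. In RNA of a whole culture, a difference in every cell and a difference in the share of cells with a transcript cannot be told apart. The log2 intensity of positive controls spotted 24 times on each array had an SD of 0.10 to 0.24. Ratios are log2 differences of normalised intensity, CDR1AS minus control, for the brightest probe of a gene, and an offset of 50 in the normalisation compresses the ratios of dim genes. Among markers of colon epithelium, EPCAM, KRT18 and VIL1 were at least 8.78 times the limit on both arrays, and CDX2 had 109 on the CDR1AS array and 170.3 on the control array. KRT20 was at 1.28 times the limit on the CDR1AS array and 1.20 times on the control array, and CDX1 at 1.16 and 1.20 times. CEACAM5 was below the limit on the CDR1AS array, and CDH17 on the control array. The leukocyte gene PTPRC and the fibroblast genes COL1A1 and COL1A2 were not above the limit on either array, while 2 of 3 leukocyte and 3 of 5 fibroblast markers were above it on both. Of 4 endothelial markers 2 were above it on both arrays, and PECAM1 and CDH5 on the CDR1AS array only.

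JUN and DUSP14 were the members that differed most, both higher on the CDR1AS array. DUSP5, EMP1 and ETV5 followed at between 1.5-fold and 2-fold higher. Of 51 measured members, 2 (3.92%) were at or past 2-fold higher, where 0.755% of all 16685 measured genes were, and 0 were at or past 2-fold lower, where 0.575% of all genes were. At or past 1.5-fold, 5 members (9.80%) were higher, against 2.61% of all genes, and 0 were lower, against 2.23%. The median ratio over the members was 0.03, against 0.00 (-0.0035) over all measured genes, and 58.8% of members lay above 0, against 47.2% of all genes. The members' ratios had an SD of 0.38, against 0.29 over all genes. In the main setting most of the set therefore lay close to 0, and a few genes stood far out on the higher side. After local background subtraction 22 members lay above 0 and 29 below, with a median of -0.012 against -0.014 over all genes. The remaining gene, EPGN, was not above background on either array.

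**Figure D1:**
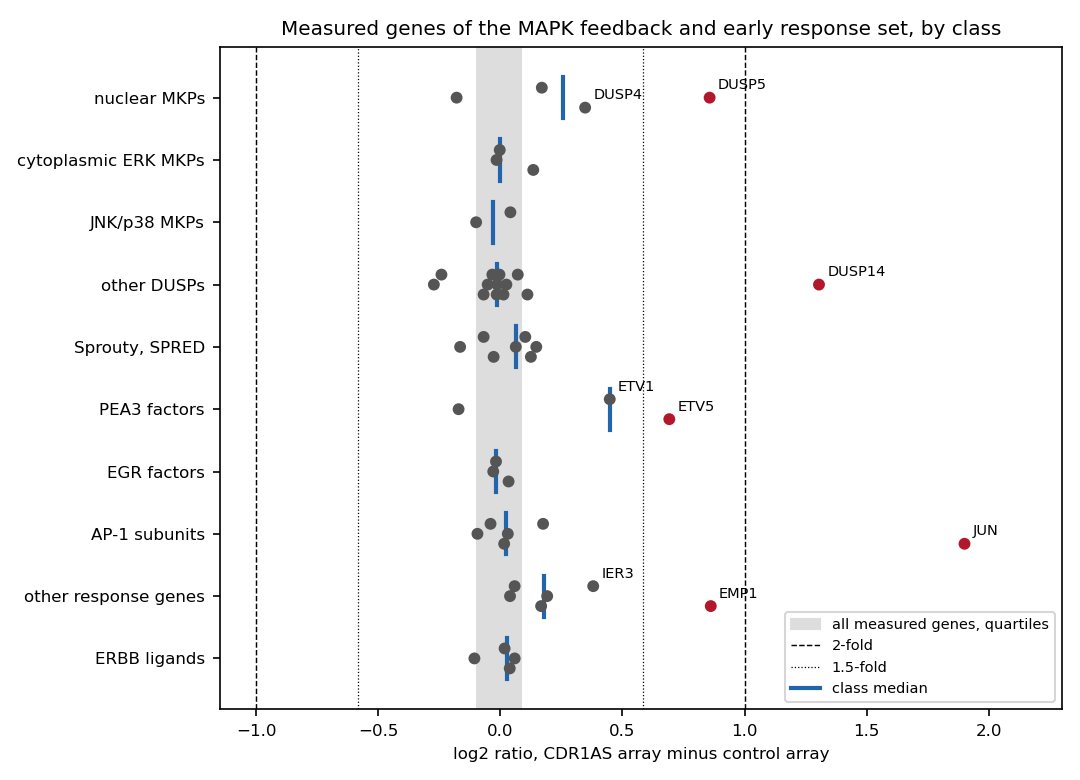
Log2 ratio (CDR1AS array minus control array, x axis) of the 51 measured members, 1 point a gene, in 10 classes down the page; grey band, quartiles of all 16685 measured genes; blue bars, class medians; dotted and dashed lines, 1.5-fold and 2-fold. The 5 red points, DUSP5, DUSP14, ETV5, JUN and EMP1, lie past 1.5-fold higher, and no point lies past 1.5-fold lower.

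**Figure D2:**
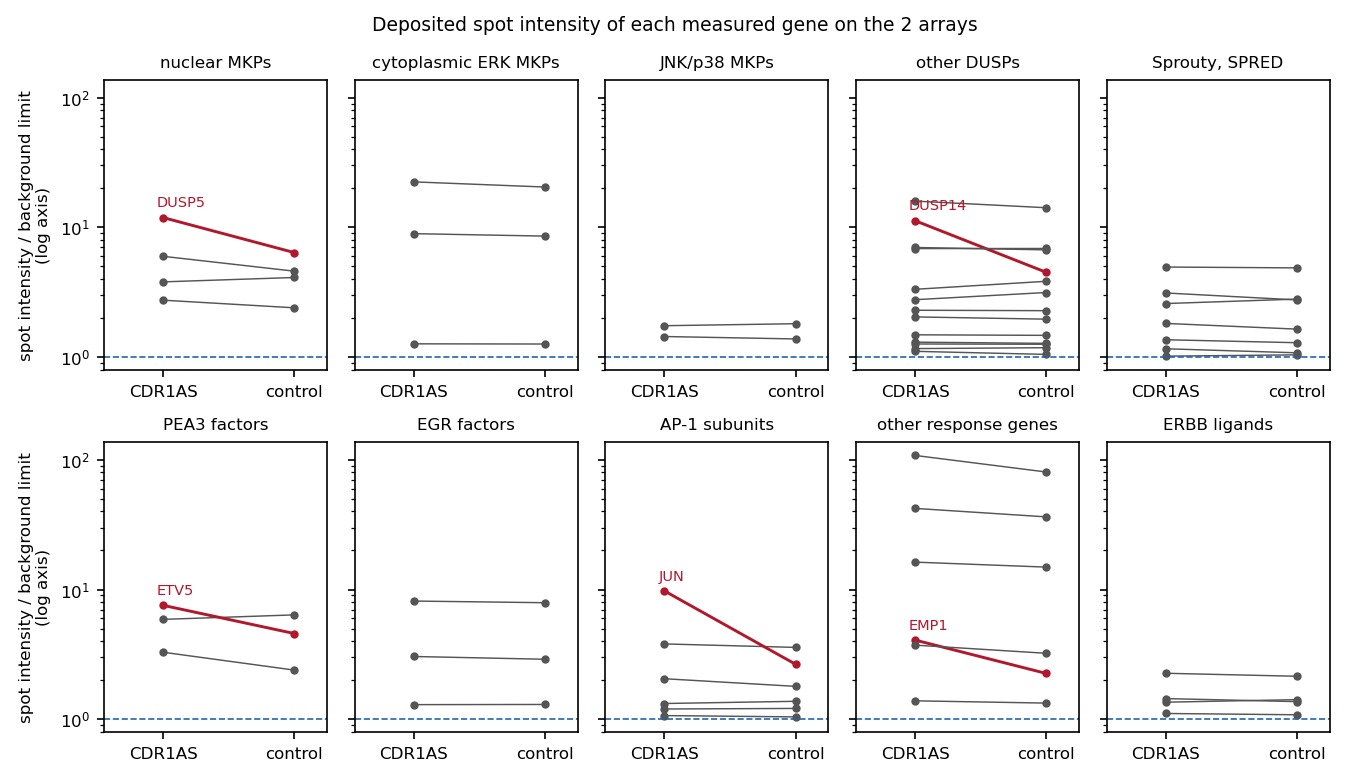
Deposited spot intensity divided by the background limit of its array (log axis) for each measured member, CDR1AS left and control right, 1 line a gene, in a panel for each class; the dashed line is the limit. JUN has 9.75 times the limit on the CDR1AS array and 2.65 times on the control array, while most lines are nearly level.

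The AP-1 factors are dimers of JUN and FOS family proteins that bind a short palindromic DNA element, and JUN is the subunit phosphorylated by JNK. JUN (gene identifier 3725) had a spot intensity of 703 on the CDR1AS array and 183 on the control array. Its normalised level was 3.73-fold higher (log2 ratio 1.90), the 18th highest of all measured genes. In the authors' deposited value table, which carries no offset, JUN had 289.8 on the CDR1AS array and 56.1 on the control array and was 5.17-fold higher. The local background beside the JUN spot was also higher on the CDR1AS array, at 216 against 86.1 on the control array. After that column was subtracted the log2 ratio was 0.98, just under 2-fold.

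The other 5 measured AP-1 subunits did not follow JUN. JUNB had 148 on the CDR1AS array and 124 on the control array (log2 ratio 0.18), and FOSL1, a subunit raised by sustained ERK activity, had 274 on the CDR1AS array and 247 on the control array (0.03). JUND (-0.04), FOSL2 (0.02) and FOSB (-0.09) were all within 1.4 times the background limit on both arrays, so a change in them could be missed. FOSB was the lowest of the class. FOS, which is not a member, had log2 ratios of -0.32 and 0.14 by its 2 probes.

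Promoter sequences are shown for the higher members JUN, DUSP14 and EMP1 and for EGR1, a member with a ratio near 0, because many early response genes are controlled by elements close to their start. RefSeq promoters on GRCh38.p14 were matched for 41 of the 52 members, and the 250 bases before the annotated start are given 5′ to 3′. Capitals mark the motifs searched on both strands: AP-1 (TGANTCA), the cyclic AMP element (TGACGTCA), the variant AP-1 elements known from the JUN promoter (TGACATCA and TTACCTCA), an ETS core (CCGGAAG), an EGR element (GCGNGGGCG), the SRF CArG box and a TATA element (TATAAA).
JUN, chr1:58784048-58784297 (- strand): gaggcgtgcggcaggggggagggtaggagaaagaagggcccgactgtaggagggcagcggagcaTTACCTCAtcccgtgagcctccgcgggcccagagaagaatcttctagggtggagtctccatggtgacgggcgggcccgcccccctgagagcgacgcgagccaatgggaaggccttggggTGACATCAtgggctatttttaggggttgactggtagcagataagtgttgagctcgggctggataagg
DUSP14, chr17:37489641-37489890 (+ strand): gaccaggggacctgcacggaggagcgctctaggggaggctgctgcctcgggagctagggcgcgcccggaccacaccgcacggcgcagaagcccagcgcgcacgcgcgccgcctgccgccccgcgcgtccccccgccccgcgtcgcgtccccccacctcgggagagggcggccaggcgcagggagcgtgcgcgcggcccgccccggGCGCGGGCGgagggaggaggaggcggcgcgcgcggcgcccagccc
EMP1, chr12:13196476-13196725 (+ strand): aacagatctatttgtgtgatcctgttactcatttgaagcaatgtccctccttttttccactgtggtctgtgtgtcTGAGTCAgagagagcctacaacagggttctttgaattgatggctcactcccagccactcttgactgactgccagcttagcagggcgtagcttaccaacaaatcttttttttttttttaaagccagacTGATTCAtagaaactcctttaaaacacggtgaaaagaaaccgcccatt
EGR1, chr5:138465229-138465478 (+ strand): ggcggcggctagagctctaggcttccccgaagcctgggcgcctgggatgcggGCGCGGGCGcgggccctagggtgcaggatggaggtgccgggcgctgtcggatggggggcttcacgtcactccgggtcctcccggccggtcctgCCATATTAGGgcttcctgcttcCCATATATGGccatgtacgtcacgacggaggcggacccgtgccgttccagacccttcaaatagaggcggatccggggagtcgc

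JUN held both variant AP-1 elements, at bases -186 to -179 and -67 to -60 counted back from the start. The element TGACATCA lay in 2 of 41 member promoters, JUN and DUSP10, and in 2.45% of 27305 promoters of the same length. The element TTACCTCA lay in JUN alone among the members and in 0.645% of all promoters. EMP1 held 2 AP-1 elements, which occurred in 2 of 41 member promoters (EMP1 and SPRED3) and in 6.60% of all. Both CArG boxes of the members were in EGR1, whose ratio was -0.02, and 1.14% of all promoters held one. DUSP14 held an EGR element only, found in 8 of 41 member promoters and 8.25% of all. The ETS core was in 2 of 41 (8.82% of all), the cyclic AMP element in 2 of 41 (1.77%) and the TATA element in 5 of 41 (11.1%). Motifs of different kinds did not overlap in the sequences printed. A match describes these letters only and is no evidence that a factor bound there.

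The EGR genes encode zinc finger factors and are among the fastest transcripts to answer ERK. EGR1 had 587 on the CDR1AS array and 547 on the control array, a log2 ratio of -0.02. EGR3 had 219.5 on the CDR1AS array and 200.4 on the control array (0.03), the highest of the class. EGR4, the lowest, was close to the limit on both arrays (-0.03), and its ratio was -0.11 with the blank level subtracted and no offset.

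The PEA3 factors are ETS proteins whose transcripts depend on ERK in many cell types, and in the main setting they did not move as a group. ETV5 had 544 on the CDR1AS array and 316 on the control array, 1.62-fold higher (log2 ratio 0.69) and 1.82-fold higher in the authors' deposited value table. ETV1 had 237 on the CDR1AS array and 165 on the control array (0.45). That was short of 1.5-fold, but ETV1 was past it with the blank level subtracted and no offset (0.64) and in the deposited table (0.69). ETV4 lay the other way, with 424 on the CDR1AS array and 441 on the control array (-0.17). After local background subtraction ETV5 was at 0.22, ETV1 at 0.23 and ETV4 at 0.76, so all of them then lay above 0.

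The inducible nuclear phosphatases are themselves early response genes. In the main setting their class median (0.26) was the second highest after the PEA3 factors (0.45), from 4 and 3 genes. DUSP5, a nuclear phosphatase selective for ERK, had 856 on the CDR1AS array and 441 on the control array. That was 1.81-fold higher (log2 ratio 0.86), and 2.01-fold in the deposited value table, but its log2 ratio was 0.45 after local background subtraction, short of 1.5-fold. DUSP4, a nuclear phosphatase for ERK and JNK, had 430.4 on the CDR1AS array and 317 on the control array (0.35, and 0.86 after local background subtraction). DUSP1, the classic stress and mitogen induced phosphatase, had 197.5 on the CDR1AS array and 165.4 on the control array (0.17). DUSP2 was the lowest of the class in the main setting, at 273 on the CDR1AS array and 283 on the control array (-0.18). After local background subtraction DUSP1 was at -0.12 and DUSP2 at 0.42.

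The cytoplasmic phosphatases for ERK had ratios nearer to 0 than DUSP5 in the main setting. DUSP6, the one most often read as a measure of ERK output, had 1614 on the CDR1AS array and 1412 on the control array, a log2 ratio of 0.13 and the highest of its class. After local background subtraction DUSP6 was at 0.62, past 1.5-fold and above DUSP5, so the order of these phosphatases depended on the background treatment. DUSP9 had 644 on the CDR1AS array and 591 on the control array (-0.00), and DUSP7 was lowest and dim (-0.02). Of the phosphatases for JNK and p38, DUSP10 had a ratio of 0.04 and DUSP16 of -0.10. A second, dimmer probe of DUSP16 had 101 on the CDR1AS array and 76.1 on the control array (0.39), so the probes of this gene were 0.49 apart, the widest gap of the 6 members with several probes.

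The other 13 DUSP genes are mostly small phosphatases without the domain that docks MAP kinases, and DUSP14 was the only one of them past 1.5-fold in the main setting. DUSP14, known in T cells for removing phosphate from the TAK1 partner TAB1, had a spot intensity of 810.4 on the CDR1AS array and 311 on the control array. It was 2.47-fold higher (log2 ratio 1.30), the 66th highest of all measured genes, and 2.90-fold higher in the deposited value table. Its ratio was 1.31 after local background subtraction, so DUSP14 was past 2-fold in all 9 alternative settings. In the main setting DUSP22, an activator of the JNK pathway, was the lowest of the class, with 239.6 on the CDR1AS array and 265 on the control array (-0.27). Its second probe gave a similar ratio there (-0.28), but after local background subtraction the probes were at -0.57 and 0.48. DUSP23 had 199 on the CDR1AS array and 217 on the control array (-0.24, and 0.26 after local background subtraction). The remaining 10 genes had ratios of -0.07 (DUSP3) to 0.11 (DUSP12) in the main setting. After local background subtraction DUSP12 was at 1.67, DUSP3 at 0.63 and DUSP11 at -1.05, all past 1.5-fold. Over all 22 DUSP genes, 10 lay above 0 and 12 below in the main setting, with a median of -0.003.

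Sprouty and SPRED proteins inhibit the steps from receptor to RAF, and all 7 of their genes were measured within 1.5-fold in the main setting. SPRY4 was highest, with 224.5 on the CDR1AS array and 190.3 on the control array (log2 ratio 0.15, second probe -0.03). SPRY2 was lowest, with 186 on the CDR1AS array and 193 on the control array (-0.16). SPRED1 had a ratio of 0.13 and SPRED2 of -0.03. SPRY3 was within 1.04 times the background limit on both arrays, which leaves its ratio of -0.07 without weight. The class median was 0.06.

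Among the other early and later response genes all 6 ratios lay above 0 in the main setting, with a median of 0.18. EMP1, which encodes an epithelial membrane protein, had 294 on the CDR1AS array and 156 on the control array. It was 1.82-fold higher (log2 ratio 0.86) and 2.39-fold higher in the authors' deposited value table. The local background beside its spot was 219.5 on the CDR1AS array and 110.4 on the control array, and after subtraction of that column the ratio was -0.02. IER3, an early response gene that affects cell survival, had 7793 on the CDR1AS array and 5570.0 on the control array (0.38). CCND1, which encodes cyclin D1 and links ERK to the cell cycle, had 3044 on the CDR1AS array and 2511 on the control array (0.19). MYC had 1172 on the CDR1AS array and 1029 on the control array (0.06), PHLDA1 had a ratio of 0.17 and IER2 was lowest (0.04). After local background subtraction CCND1 was at 1.87, MYC at 0.64, PHLDA1 at 0.56 and IER2 at 0.09. IER3 was then at -4.33, its spot on the CDR1AS array being dimmer than its local background.

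The ERBB ligands, which cells shed to activate EGFR and its relatives, had ratios close to 0 in the main setting, where the offset compresses the ratios of such dim genes. EREG had 163 on the CDR1AS array and 148 on the control array (log2 ratio 0.04). HBEGF was highest at 0.06 and TGFA lowest at -0.11, and BTC had 0.02, all 3 within 1.5 times the background limit on both arrays. TGFA was at -0.30 with the blank level subtracted and no offset, and EREG at 0.30 after local background subtraction. AREG and EGR2 were not analysed here. Among the receptors, EGFR and ERBB4 were not above background on either array. ERBB2 had 115 on the CDR1AS array and 113 on the control array (-0.07), and ERBB3 had 123 on the CDR1AS array and 128 on the control array (-0.17).

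Genes that neighbour the 5 higher members on their chromosomes were compared with them, taking up to 5 measured genes on each side in the gene order of RefSeq. Around DUSP14 on chromosome 17 the 10 neighbours had ratios of -0.25 to 0.13 and none was past 1.5-fold. Beside JUN on chromosome 1 the next measured gene, FGGY, which encodes a carbohydrate kinase, had 542 on the CDR1AS array and 242.5 on the control array, a ratio of 1.08. The other 9 neighbours of JUN had ratios of -0.46 to 0.27. The neighbours of EMP1 on chromosome 12 had a median of -0.01, with LINC01559 at -0.65. Those of DUSP5 on chromosome 10 had a median of 0.03, with ADD3 at -0.78. Around ETV5 on chromosome 3, 8 of 10 neighbours lay above 0, with a median of 0.13 and a highest ratio of 0.36. Each of the 5 members had a higher ratio than every gene measured beside it in the main setting. These 5 members were taken for being past 1.5-fold higher in the main setting, so this order was largely set by the choice. After local background subtraction FGGY was at 1.26, above JUN at 0.98, while EMP1 was at -0.02 and ETV5 at 0.22. Neighbours other than FGGY, ADD3 and LINC01559 were not compared in that setting.

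**Figure D3:**
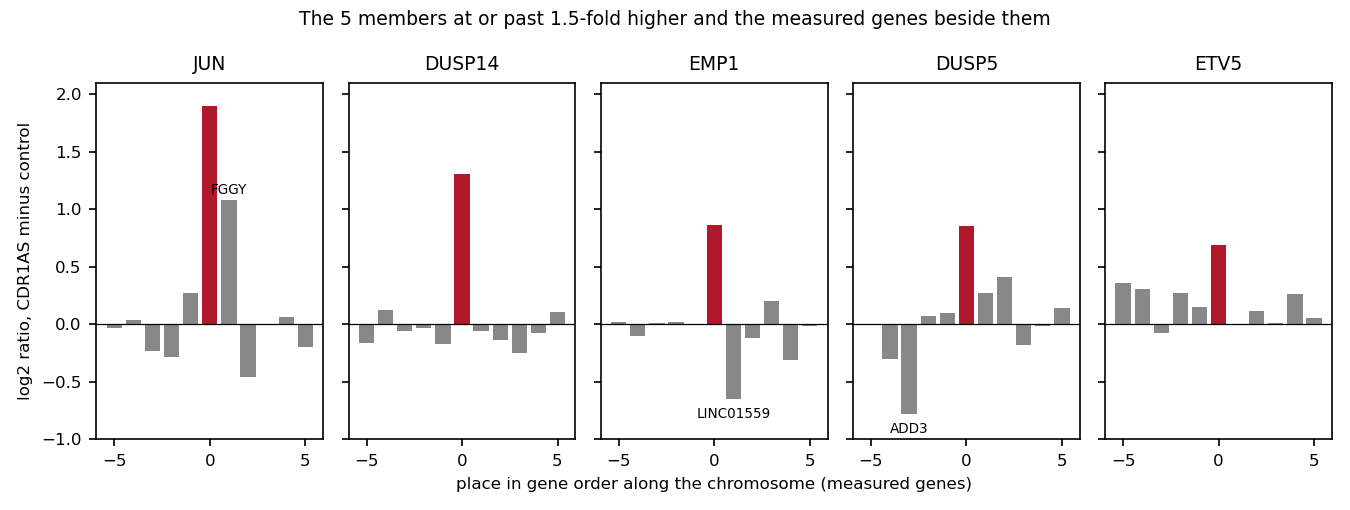
Log2 ratio (CDR1AS minus control, y axis) of the 5 members at or past 1.5-fold higher (red, place 0) and of up to 5 measured genes on each side in chromosomal order (grey). The neighbours past the limit on the CDR1AS array only, SORCS1 and DGKG, are drawn at 0 because their ratio was set to 0. FGGY beside JUN (1.08) is the only neighbour past 1.5-fold on the higher side in the main setting.

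The kinases and adaptors that feed the pathway were close to even between the arrays in the main setting. Of 12 measured genes of the RAS, RAF, MEK and ERK core, 6 lay above 0 and 6 below, with a median of -0.02 and none past 1.5-fold. MAP2K1, which encodes MEK1, had 460 on the CDR1AS array and 458 on the control array, and MAPK3, which encodes ERK1, had 224 on the CDR1AS array and 239 on the control array (-0.23). The 18 measured RAS regulators and adaptors had a median of 0.003, again with none past 1.5-fold. Of 14 measured JNK and p38 kinases, 0 were past 1.5-fold higher, against 2.61% of all genes, and 2 past it lower, against 2.23%. MAPK9, which encodes the JUN kinase JNK2, had 273 on the CDR1AS array and 378 on the control array, 1.53-fold lower (-0.62). MAPK13, a p38 kinase, had 265 on the CDR1AS array and 367 on the control array, also 1.53-fold lower (-0.61), but its ratio was 0.47 after local background subtraction. All 6 measured SRF and ternary complex factor genes lay above 0, led by SRF (0.33), with a median of 0.07, but after local background subtraction 1 of 6 (SRF, 1.14) did.

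Other genes used as readouts of ERK output had a higher median than the members, although only a few were far from 0. Of 17 measured, 15 (88.2%) lay above 0, against 47.2% of all genes, with a median of 0.31. Past 1.5-fold, 4 were higher, against 2.61% of all genes, and 0 were lower, against 2.23%. PLAU, which encodes the protease urokinase, had 456 on the CDR1AS array and 114 on the control array, 4.10-fold higher (log2 ratio 2.04, second probe 0.996). PLAUR, its receptor, had 503 on the CDR1AS array and 230.0 on the control array, 2.08-fold higher (1.05). After local background subtraction PLAU was at 0.96 (second probe 0.34) and PLAUR at 0.49. HMGA2, a chromatin protein gene, had 146 on the CDR1AS array and 85.4 on the control array (0.79), and the ephrin receptor gene EPHA4 had 144.8 on the CDR1AS array and 89.9 on the control array (0.68). These were at 0.27 and 0.32 after local background subtraction, so PLAU alone of the 4 genes stayed past 1.5-fold. The list then had a median of 0.12, with 15 of 17 genes above 0. HMGA1 was also past 1.5-fold higher by its brighter probe (1.48, other probe 0.20). That made 2 genes of the list past 1.5-fold higher, where 8.53% of all genes were. SLC20A1 was past 1.5-fold lower by its brighter probe (-1.05, other probe 1.32), where 8.20% of all genes were. The list also held the pro-apoptotic genes BCL2L11, whose product ERK signalling lowers, and BMF. BCL2L11 was at 0.32 and BMF at 0.16 in the main setting, and both are counted among the genes above 0. Of 19 other immediate early genes, 13 (68.4%) lay above 0 in the main setting, against 47.2% of all genes, with a median of 0.13. In this list 2 genes were past 1.5-fold higher, against 2.61% of all genes. These were IER5 (558 on the CDR1AS array and 293 on the control array, 0.84) and KLF6 (427 on the CDR1AS array and 245 on the control array, 0.72). After local background subtraction IER5 was at 0.17 and KLF6 at 0.56, and the median of the list was -0.03 with 9 above 0. Then 0 of the 19 were past 1.5-fold higher and 1 past it lower, where 8.53% and 8.20% of all genes were. KLF4 passed the background limit on the CDR1AS array only and was at least 1.34-fold higher in the main setting. Its log2 ratio was 0.07 after local background subtraction. These lists were drawn up with earlier results of the series known, so their counts describe these arrays only.

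**Figure D4:**
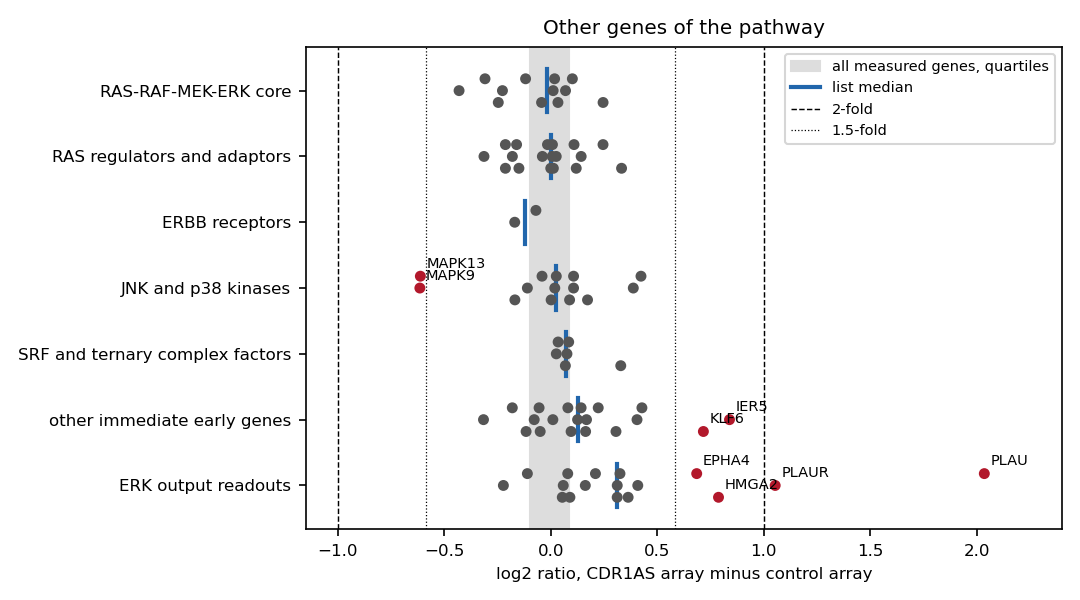
Log2 ratio (CDR1AS minus control, x axis) of the measured genes of 7 lists around the pathway, 1 point a gene; grey band, quartiles of all measured genes; blue bars, list medians; genes past the limit on the CDR1AS array only are drawn at their lower bound. The readouts of ERK output have the highest median (0.31), and MAPK9 and MAPK13 are the only genes past 1.5-fold lower in the main setting.

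The choice of background treatment was the setting that moved the members most. In the plot of settings JUN lay between 0.98 and 2.37, DUSP14 between 1.30 and 1.54, DUSP5 between 0.45 and 1.01, ETV5 between 0.22 and 0.86 and EMP1 between -0.02 and 1.26. Without the local background subtraction all 5 were past 1.5-fold higher in each of the other 8 alternatives. The local background column was higher beside brighter spots (Pearson's r 0.942 on the CDR1AS array and 0.977 on the control array across probes, which share their array and are not independent), and so was not used in the main values.

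**Figure D5:**
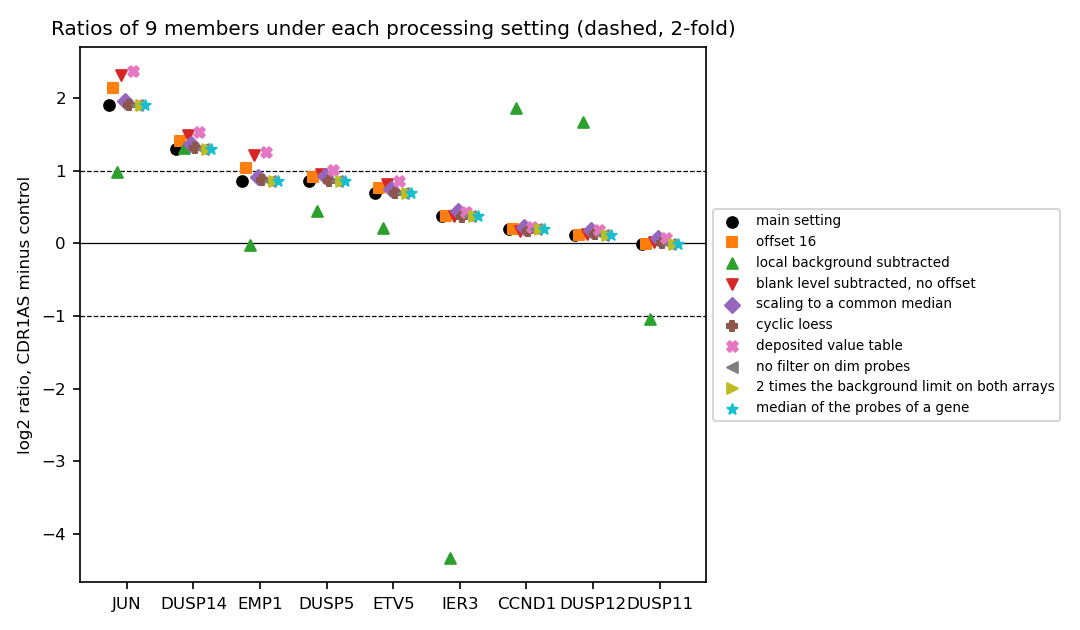
Log2 ratio (CDR1AS minus control, y axis) of 9 members under the main setting and 9 alternatives, 1 symbol a setting; dashed lines, 2-fold. The values after local background subtraction (green triangles) lie farthest from the main ones except in DUSP14, by most in IER3 (-4.33), CCND1 (1.87) and DUSP12 (1.67).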

How the data were processed

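Per the labels, Trizol-extracted RNA was amplified as amino allyl RNA and dyed with Cy5. The authors deposited 1 intensity a spot, its median brightness over 3 scanner gains per the file headers; how the gains were joined was not given in the sources used here. Of 24459 gene probes kept (1 was left out for a quality flag), 21706 had 1 symbol, 0 had several and 2753 had none. All 52 members matched RefSeq (GRCh38.p14) by gene identifier with the same symbol. The array's genome build was not given in the sources used here.

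The main setting used limma 3.58.1 (R 4.3.3): normexp without the local background, fitted on all spots (offset 50), quantile normalisation of the 2 arrays and log2. A gene was its brightest probe, kept where above background on at least 1 array; with 1 array a group no test was possible, and folds of 2 and 1.5 were counted. A gene above background on 1 array only has its dim side set to the lowest value above background or its own, if higher. Where the ratio of such a gene then pointed to the dim side, it was set to 0. The authors' deposited value table was a straight line of each array's intensity (largest residual 0.0559 units on the CDR1AS array and 0.0510 on the control array), linear, with a column median of 25 on each and no centring of genes, and served as an alternative. Alternatives are given in the closing section. The steps were tested on simulated data.

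Values are given for every measured member past 1.5-fold, for the highest and lowest of each class and, in each pathway list, for up to 4 genes past 1.5-fold; others shown were chosen after their values were seen. Members and lists were chosen with earlier results of these data known.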

Additional observations from a re-analysis of the deposited data

How the results depend on the processing

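No paired analysis was possible because each group had 1 array. Cyclic loess, scaling to a common median, no filter on dim probes, a limit of 2 times the background on both arrays (29 members left), an offset of 16 and the median of a gene's probes kept each count of members within 1.5 times its main value, with JUN, DUSP14, EMP1, DUSP5 and ETV5 past 1.5-fold higher in each. The median over the members ran from -0.01 (local background subtracted) to 0.12 (deposited value table, where all genes had 0.04). After local background subtraction 9 of 51 members were past 1.5-fold higher, where 8.53% of all genes were. On the lower side 2 members (DUSP11 and IER3) were past 1.5-fold, against 8.20% of all genes, and past 2-fold, against 3.32%. Past 2-fold higher were 3 members (CCND1, DUSP12 and DUSP14), against 4.57% of all genes, and EMP1 was at -0.020. With the blank level subtracted and no offset, 1 member (SPRY3, at the background limit) was past 1.5-fold lower, where 7.66% of all genes were. On the higher side 6 members were then past 1.5-fold, against 8.12% of all genes, and 3 (JUN, DUSP14 and EMP1) past 2-fold, against 3.13%. With the deposited value table, there were 4 members past 2-fold higher (JUN, DUSP14, EMP1 and DUSP5), against 3.32% of all genes. In that setting 8 members were past 1.5-fold higher, against 9.17% of all genes, and 1 (SPRY3) past it lower, against 6.40%. The cause was not tested.

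Over all genes, the counts past 2-fold were 126 higher and 96 lower in the main setting, 229 and 172 with an offset of 16, 763 and 554 after local background subtraction, 522 and 423 with the blank level subtracted, 541 and 367 in the deposited value table and 75 and 65 under the stricter filter, which tests fewer genes. Past 1.5-fold they were 435 and 372 in the main setting, against 680 and 548, 1423 and 1368, 1354 and 1278, 1495 and 1044, and 281 and 274 in the same order. Of the measured members 20 were under 2 times the background limit on both arrays, where a change could be missed.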

Other observations

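Some genes named above carry a second probe with another value. The dimmer probe of DUSP16 had 14.7 in the authors' deposited value table on the CDR1AS array and 4.9 on the control array, where its brighter probe had 25.7 on the CDR1AS array and 28.1 on the control array. CCN2, an early response gene for a matrix protein, had a log2 ratio of 0.01 by its brighter probe by mean level. Its other probe gave 0.72, with 117 on the CDR1AS array and 72.4 on the control array, close to the limit on the control array. SLC20A1, a phosphate transporter gene of the list of ERK readouts, gave 0.09 and 0.50. The transcripts that these probes detect were not analysed here.

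The IER3 spot was dimmer than its own local background on the CDR1AS array, with 7793 for the spot and 8180.5 for the local background there, and with 5570.0 and 4842 on the control array. JUN, the highest member, lay beside FGGY at 1.08, the only neighbour of the 5 higher members past 1.5-fold on the higher side in the main setting, and each of these genes had 1 probe above background here.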
